A study of Mus musculus with 2 samples.

Results

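The Fc gamma receptor genes Fcgr1, Fcgr2b, Fcgr3 and Fcgr4, the signalling adaptor gene Fcer1g, the neonatal Fc receptor gene Fcgrt and the low-affinity IgE receptor gene Fcer2a were described in single-cell RNA-seq of mouse colon. These 7 genes of 31053 were taken by symbol from the gene tables of both libraries, and all 7 had at least 1 UMI (a tag that counts each captured molecule once). CD45.2 bone marrow from donors lacking the IL-10 receptor (IL-10R KO, here KO) or lacking both it and ceramide synthase 2 (IL-10R/CerS2 DKO, here DKO) had been engrafted into CD45.1 PepBoy recipients. Every group thus lacked the IL-10 receptor, and an intact genotype was not analysed here. Ceramide synthase 2 makes very long chain ceramides. By the study's methods, cells had been sorted on CD45, CD11b, CD11c and CD64, a gate given as one against neutrophils, T cells and B cells. The study's results text names only a sort of CD45-positive immune cells. With 1 library per genotype and no stated number of mice in either, genotype cannot be told apart from mouse, sort or library, and no difference was tested. Any cells of the recipient could not be separated from donor cells by these counts.

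Fc gamma receptors bind the constant part of IgG. FcγRI (Fcgr1, the CD64 of the sort), FcγRIII (Fcgr3) and FcγRIV (Fcgr4) are activating: they pair with the FcRγ chain encoded by Fcer1g, whose ITAM motif recruits the kinase Syk and drives phagocytosis and cytokine release. FcγRIIB (Fcgr2b) is the inhibitory receptor, carries its own ITIM motif and recruits the phosphatase SHIP1, and it is the classical Fc gamma receptor of B cells. Macrophages set their response to immune complexes by the balance of both kinds, and interferon-gamma is known to raise Fcgr1 and Fcgr4. FcRn (Fcgrt) rescues IgG from lysosomal degradation, and CD23 (Fcer2a) binds IgE on B cells.

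On the GRCm38 assembly (mm10), Fcgr2b (chr1:170958617-170976547, minus strand), Fcgr4 (chr1:171018920-171029761, plus strand) and Fcgr3 (chr1:171051174-171064935, minus strand) lay within 106 kb, with Fcer1g (chr1:171229572-171234365, minus strand) in the same region. Fcgr1 lay on chr3:96282909-96293969, Fcgrt on chr7:45092990-45103851 and Fcer2a on chr8:3681737-3694175, all on the minus strand. Fcgr2b and Fcgrt are each overlapped by an annotated antisense gene. In the last 300 bases of the annotated transcripts, where 3′ libraries are read, 5 of 561 stretches of 31 bases of Fcgr3 (0.891%) also occurred in Fcgr2b. Those of Fcgr1, Fcgr4, Fcgr2b and Fcer1g were found in no other gene, whereas 34 of 1154 of Fcgrt and 61 of 850 of Fcer2a also occurred in other genes outside this family, so their counts are less certain. For 4 receptor genes the sequence before a transcript start is shown, because their levels separated the genes below. These are Fcgr1 and Fcgr4, both known as interferon-gamma targets, Fcgr3, and the inhibitory Fcgr2b. Each sequence is the 250 bases before a RefSeq transcript start (GRCm38.p6), read 5′ to 3′ on the gene's strand. Matches to 3 short motifs are in capitals. The Fcgr3 and Fcgr2b windows lie inside the gene spans given above, before an internal start and not upstream of the whole gene.
Fcgr1, chr3:96293970-96294219, minus strand: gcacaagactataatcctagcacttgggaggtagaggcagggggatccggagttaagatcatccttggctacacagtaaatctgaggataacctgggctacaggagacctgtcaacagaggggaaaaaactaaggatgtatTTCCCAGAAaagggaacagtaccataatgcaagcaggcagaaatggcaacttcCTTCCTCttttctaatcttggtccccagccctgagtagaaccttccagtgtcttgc
Fcgr4, chr1:171018676-171018925, plus strand: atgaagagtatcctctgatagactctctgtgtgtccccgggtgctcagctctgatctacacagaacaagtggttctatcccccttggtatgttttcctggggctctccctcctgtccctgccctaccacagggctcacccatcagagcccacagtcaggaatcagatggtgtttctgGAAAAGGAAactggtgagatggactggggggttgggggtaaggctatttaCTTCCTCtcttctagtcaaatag
Fcgr3, chr1:171059404-171059653, minus strand: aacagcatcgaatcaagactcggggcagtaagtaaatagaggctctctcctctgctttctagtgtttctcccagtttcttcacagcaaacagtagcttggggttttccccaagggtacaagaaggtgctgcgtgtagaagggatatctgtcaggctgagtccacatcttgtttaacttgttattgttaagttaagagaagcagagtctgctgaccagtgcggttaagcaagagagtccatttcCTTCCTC
Fcgr2b, chr1:170976072-170976321, minus strand: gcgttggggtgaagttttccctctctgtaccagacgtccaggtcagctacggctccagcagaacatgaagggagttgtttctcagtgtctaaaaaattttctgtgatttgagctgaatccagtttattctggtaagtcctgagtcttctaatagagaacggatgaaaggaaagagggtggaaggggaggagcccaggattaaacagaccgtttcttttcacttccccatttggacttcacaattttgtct
The motifs were TTCNNNGAA (the GAS element of interferon-gamma targets), GAGGAAG (a core bound by the myeloid factor PU.1) and GAAANNGAA (an element bound by interferon regulatory factors), each searched on both strands. Fcgr1 held a GAS match that began at position −109 before the start and a PU.1 match at −56. Fcgr4 held a PU.1 match at −23 and an interferon regulatory factor match at −73. Fcgr3 held a PU.1 match at −7 in the window shown, which fell at −16 before another RefSeq start. Fcgr2b, Fcer1g, Fcgrt and Fcer2a held none of the 3 motifs. Of 27025 windows of this length, 7.18% held the GAS letters, 10.4% the PU.1 letters and 7.16% the interferon regulatory factor letters, so a match is a description of these letters and not a binding site.

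The KO library held 2584 barcodes and 12549471 UMIs, and the DKO library 742 barcodes and 3414944 UMIs. After the study's filter 2443 and 730 cells remained, with medians of 4715 and 3722 UMIs, and 1 barcode occurred in both libraries. Among monocyte/macrophage-like cells Cers2 had 443 UMIs in KO (50.9 CPM, UMIs per 1000000 UMIs of the summed cells) and 0 in DKO, which allows up to 1.68 CPM. Il10rb, deleted in both donors, stood at 4.48 CPM in both (39 and 8 UMIs), and a 3′ count may come from outside a deleted part. Classes were named from marker genes: monocyte/macrophage-like cells were 1520 KO (62.2%) and 322 DKO cells (44.1%). Despite the gate, neutrophil-like cells (161 and 48), B cell-like cells (228 and 166), T cell-like cells (148 and 46) and dendritic cell-like cells (105 and 51) were present. B cell-like cells held 9.33% of kept KO and 22.7% of kept DKO cells and had 0 Fcgr1 UMIs in both libraries, so for them the CD64 label was not seen in RNA. Of all kept cells, 19.4% (KO) and 14.7% (DKO) had a Fcgr1 UMI. Because the methods place CD64 in the sort, the level of Fcgr1 among sorted cells is given as a description.

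Reclustering the monocyte/macrophage-like cells gave 6 substates. Members and pathway genes were kept out of the clustering. The substate led by Dnase1l3, Acp5, Apol7c, Ccr7 and Cd63 (487 KO and 66 DKO cells) held 7 of 8 C1q macrophage markers, but Ccr7 and Apol7c are also genes of dendritic cells, so it is called Dnase1l3/Acp5-led. The Ly6c2 monocyte-like substate (444 and 88 cells) was led by genes that included Vcan, Ifitm6, Ly6c2 and S100a4. The nonclassical monocyte-like substate (43 and 22 cells) was led by Pou2f2, Adgre4, Treml4, Ceacam1 and Ccnd3. A substate led by Cxcl3, Arg1, Nos2, Slc7a2 and Il1a, genes of inflammatory macrophages, had 181 KO cells and 1 DKO cell, so it may be a property of 1 library. Substates led by Retnla, Mrc1, C4b, Lpl and Ccl7 (168 and 93 cells) and by Hes1, Ccl12, Ccnb1ip1, Egr1 and Atf3 (197 and 52 cells) were left without a name. They held 6 and 7 of the same 8 C1q macrophage markers, so these markers were not particular to the Dnase1l3/Acp5-led cells.

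Fcer1g was by far the most abundant member. In monocyte/macrophage-like cells it reached 3113 CPM in KO (95% interval 3076 to 3150) and 3114 CPM in DKO (3033 to 3197), and 97.8% and 96.9% of cells had a UMI. Since each captured molecule gives 1 UMI whatever its length, CPM were set side by side between genes. This takes capture and assignment of reads as alike between genes, which was not tested. In KO the order was Fcer1g, Fcgr2b (399 CPM), Fcgr3 (304), Fcgr4 (168), Fcgr1 (77.3), Fcgrt (29.2) and Fcer2a (0.919), and no neighbouring intervals overlapped. In DKO Fcgr3 (302 CPM) and Fcgr2b (287 CPM) had overlapping intervals, and the rest kept this order. Intervals throughout are exact and cover counting error only, not the spread between mice. Those of levels and ratios take each UMI as independent and also leave out the spread between cells.

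The activating receptors differed in where they were found. Fcgr3, the low-affinity activating receptor, was highest in neutrophil-like cells (553 CPM in KO and 415 in DKO) and in the Cxcl3/Arg1-led KO substate (470 CPM), whose KO intervals overlapped, followed by Ly6c2 monocyte-like cells (346 and 372 CPM). The other 4 substates lay between 193 and 366 CPM in both libraries. Fcgr4, which binds IgG2 subclasses, was highest in neutrophil-like cells (335 CPM in KO and 379 in DKO) and nonclassical monocyte-like cells (283 and 554 CPM), whose intervals overlapped in both libraries. The other 5 substates held 88.2 to 227 CPM of Fcgr4, and the top one, the Retnla/Mrc1-led KO cells, overlapped with the nonclassical KO cells. Fcgr1, the high-affinity receptor, followed another order. It was highest in Ly6c2 monocyte-like cells (117 and 129 CPM) and the Retnla/Mrc1-led substate (111 and 94.3 CPM), and both overlapped with the Hes1/Ccl12-led substate (85.9 and 75.8 CPM). In KO it was 61.6 CPM (53.6 to 70.5) in Dnase1l3/Acp5-led cells, below the Ly6c2 monocyte-like and Retnla/Mrc1-led cells. The Cxcl3/Arg1-led KO cells, rich in Fcgr3, had only 27.2 CPM of Fcgr1 (18.7 to 38.2). Neutrophil-like cells had 2 Fcgr1 UMIs in KO and 0 in DKO.

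The inhibitory Fcgr2b was lowest in the monocyte-like substates. It reached 684 CPM (638 to 732) in the Cxcl3/Arg1-led KO substate, where 94.5% of cells had a UMI, and 451 CPM in KO Dnase1l3/Acp5-led cells. The Retnla/Mrc1-led (345 CPM) and Hes1/Ccl12-led (318 CPM) KO substates followed with overlapping intervals, then Ly6c2 monocyte-like cells (238 CPM) and nonclassical monocyte-like cells (87.0 CPM). In DKO the Dnase1l3/Acp5-led (345 CPM), Retnla/Mrc1-led (344 CPM) and Hes1/Ccl12-led cells (293 CPM) could not be ordered by their intervals, and Ly6c2 monocyte-like cells were below all 3 at 187 CPM. Neutrophil-like cells had 13 Fcgr2b UMIs in KO, 6 of them in 1 cell, and 0 in DKO. FcRn (Fcgrt) was highest in the Retnla/Mrc1-led (68.1 CPM in KO and 58.4 in DKO) and Hes1/Ccl12-led substates (58.6 and 79.3 CPM), and lowest among KO substates in the Cxcl3/Arg1-led (6.59 CPM) and Ly6c2 monocyte-like cells (14.3 CPM), whose intervals overlapped. No Fcgrt UMI was seen in neutrophil-like cells, which allows up to 10.1 CPM in KO and 35.6 in DKO.

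**Figure D1:**
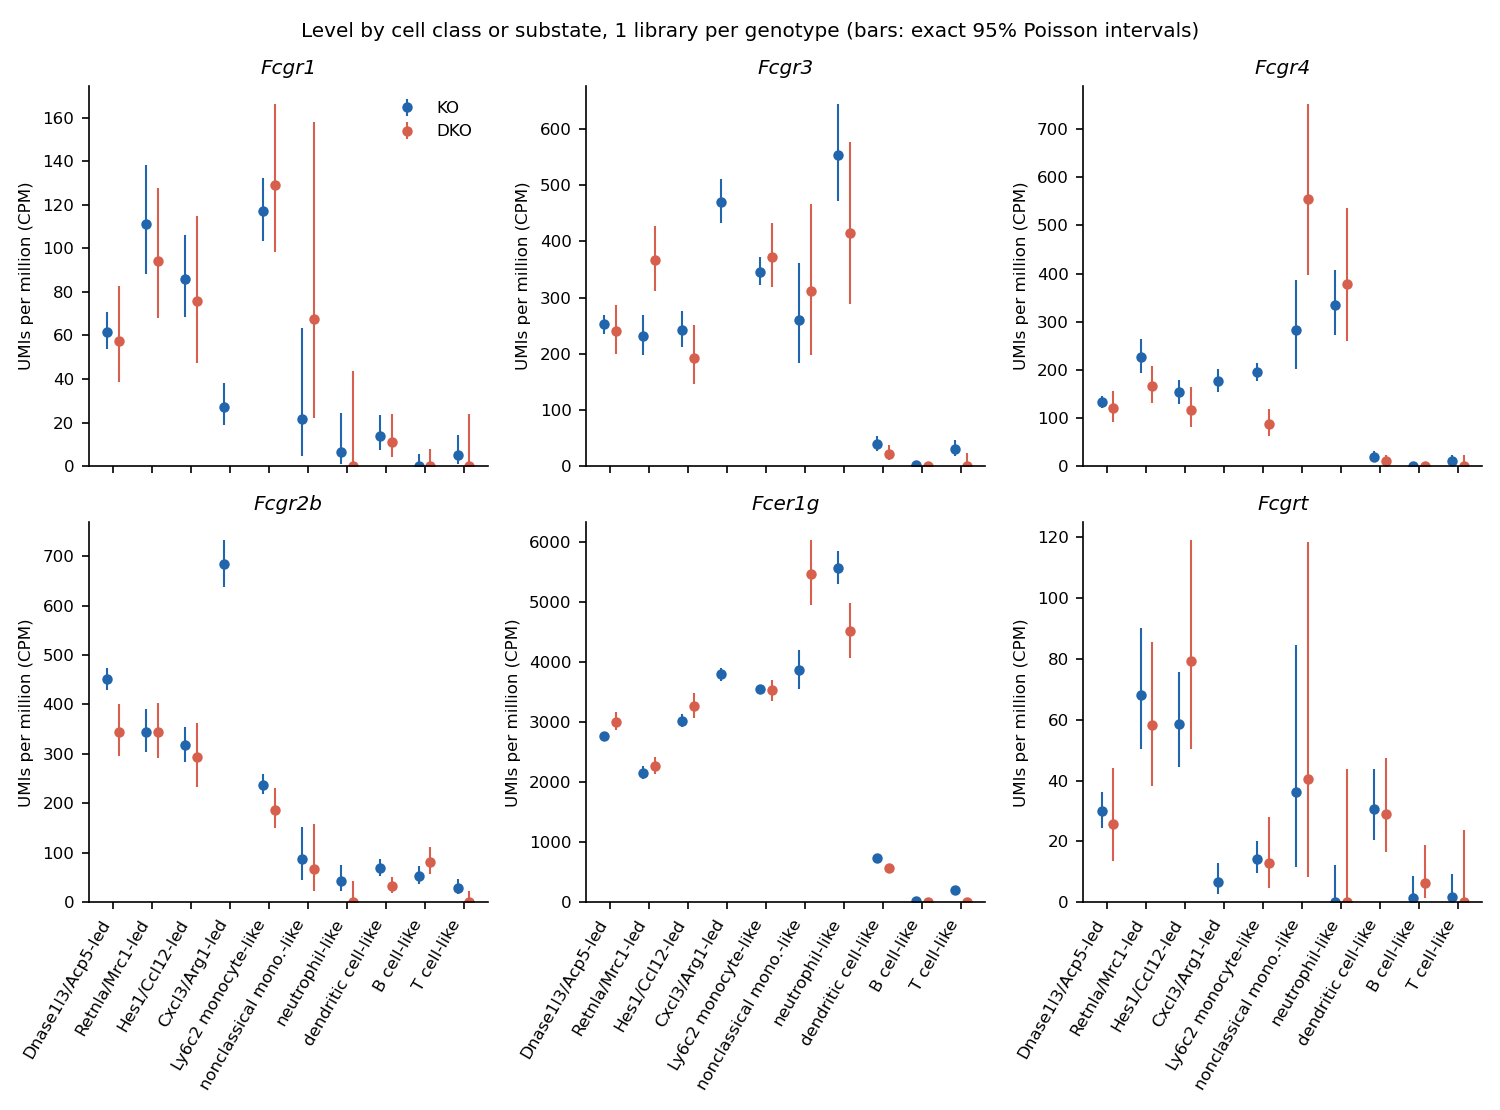
Level of 6 members in CPM (y axis) in each class or substate (x axis), KO in blue and DKO in red, 1 library each, with exact 95% Poisson intervals. Populations with fewer than 20 cells in a library are left out, so the Cxcl3/Arg1-led substate has KO values only. Fcgr2b peaks at 684 CPM in that substate, where Fcgr1 is 27.2 CPM, while Fcgr4 and Fcer1g are highest in neutrophil-like and nonclassical monocyte-like cells.

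Among substates Fcer1g ran from 2158 CPM in Retnla/Mrc1-led to 3869 CPM in nonclassical monocyte-like cells in KO, and from 2277 to 5475 CPM in the same substates in DKO. It was 5580 CPM in KO and 4515 CPM in DKO neutrophil-like cells. Likeness was taken over 14 values: dendritic, neutrophil, B, T and Ly6c2 monocyte-like cells and Dnase1l3/Acp5-led cells of both libraries, and the Cxcl3/Arg1-led and nonclassical KO cells. Across them, log2(CPM + 10) of Fcer1g followed Fcgr3 (Pearson r 0.97) and Fcgr4 (0.94) closely and Fcgr2b less so (0.43), and Fcgr2b and Fcgr4 had an r of 0.33. Of 6346 genes, those closest to Fcgr4 were Clec4e, Tgm2 and Igsf6 (all 0.98), those closest to Fcer1g were Gpr35, Nfe2l2 and Cd14 (all 0.98), those closest to Fcgr2b were Blvrb (0.95), Tcirg1 and Ctdp1 (both 0.93), and those closest to Fcgr1 were Stx3 and Ms4a6d (both 0.95) and Siva1 (0.94). The points share their library and its depth, and these values are descriptions.

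B cell-like cells carried 2 members. Fcgr2b had 35 UMIs in KO (53.4 CPM) and 38 in DKO (82.2 CPM), and DKO over KO was 0.62 on the log2 scale (−0.08 to 1.33). Fcer2a, the CD23 gene of mature B cells, had 133 UMIs in KO (203 CPM) and 61 in DKO (132 CPM), with 34.6% and 23.5% of cells positive and a log2 ratio of −0.62 (−1.08 to −0.17). Both lay past a 1.5-fold difference, Fcgr2b higher and Fcer2a lower, among 2735 genes with at least 50 UMIs in these cells, of which 9.4% were higher and 3.88% lower by that fold. In the same cells the 6 plasma cell markers summed to 4598 CPM (KO) against 476 CPM (DKO), and their part in both ratios was not tested. Fcgr3 had 1 UMI in KO and 0 in DKO B cell-like cells, and Fcgr4 had 0 in both. The share of B cell-like cells with a Fcgr3 UMI, 0.439% in KO at a median of 2428 UMIs, stood against 69.6% of KO monocyte/macrophage-like cells at a median of 5499 UMIs. KO T cell-like cells, which should also lack Fcgr3, had 18 UMIs in 4.05% of cells, so the background was not the same in every class and its source was not tested. Outside B cell-like cells Fcer2a was nearly absent, with 8 KO UMIs and 1 DKO UMI in monocyte/macrophage-like cells and 22 DKO UMIs in a single cell of the unnamed Spink4/Agr2-led cluster.

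Cells with lymphocyte markers separated the adaptor from the receptors. In the unnamed cluster led by Ikzf2 and Xcl1, whose markers were of T cells and innate lymphocytes, Fcer1g stood at 725 CPM in KO (142 cells) and 777 CPM in DKO (67 cells), with 64.8% and 77.6% of cells positive. Each of the 4 Fc gamma receptor genes had at most 3 UMIs there in either library. T cell-like cells had 124 Fcer1g UMIs in KO and 2 in DKO. The KO UMIs came from 13 of 148 cells, which also held 106 Lyz2 UMIs against 10 in the other 135 cells, and the part of doublets or free RNA was not tested.

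Within monocyte/macrophage-like cells Fcgr2b and Fcgr4 were lower in DKO, and which of them differed more depended on how substates were weighted. Fcgr2b had 3474 UMIs in KO (399 CPM, 386 to 413) and 513 in DKO (287 CPM, 263 to 313). The ratio of DKO to KO was −0.47 on the log2 scale (−0.61 to −0.34), and the intervals of the 2 libraries did not overlap. With substates weighted as in KO this value was −0.30, and without the Cxcl3/Arg1-led cells −0.32. For Fcgr4, 168 CPM in KO stood against 143 CPM in DKO (log2 −0.22, −0.42 to −0.03), and weighted in the same way this value was −0.44. Fcgr3, at 304 and 302 CPM, showed no difference beyond counting error (−0.15 to 0.12), nor did Fcgr1 at 77.3 and 88.5 CPM (−0.06 to 0.45) or Fcer1g (−0.04 to 0.04). Fcgrt was 29.2 CPM in KO and 39.8 CPM in DKO (log2 0.45, 0.05 to 0.83), but with that weighting its value was −0.019. Scaling by TMM moved each log2 ratio of this class by −0.12, which kept these signs except that Fcer1g came to −0.12. Of the 6 members with at least 50 UMIs, 0 were higher and 0 lower by 1.5-fold, where 9.05% of 8203 genes were higher and 6.88% lower, and the median log2 ratio of the 6 members was −0.0037 beside 0.09 over all genes. Of the markers of other cells in this class, the 10 neutrophil markers summed to 431 CPM in KO and 288 in DKO (Ly6g at 0 in both, Retnlg in DKO) and the 8 B cell markers to 39.6 and 45.4 CPM (3 of them at 0 in DKO), and their part in these ratios was not tested.

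The balance of activating to inhibitory transcripts was taken as Fcgr3 plus Fcgr4 UMIs over Fcgr2b UMIs, without Fcgr1 because of the sort. It was 1.18 in KO (1.13 to 1.24) and 1.55 in DKO (1.39 to 1.74), and DKO over KO was 0.39 on the log2 scale (0.22 to 0.57). Adding Fcgr1 gave 1.38 and 1.86. The ratio differed far more between cell types than between genotypes. In KO it was 0.855 in Dnase1l3/Acp5-led cells, 0.946 in the Cxcl3/Arg1-led, 1.24 in the Hes1/Ccl12-led and 1.33 in the Retnla/Mrc1-led substate, 2.27 in Ly6c2 monocyte-like cells, 6.25 in nonclassical monocyte-like cells and 20.4 in neutrophil-like cells, where DKO had 67 activating and 0 inhibitory UMIs (a ratio above 17.7). B cell-like cells stood at the other end with 0.0286. Within a substate the DKO over KO value was 0.29 (−0.04 to 0.62) in Dnase1l3/Acp5-led, 0.11 (−0.28 to 0.52) in Ly6c2 monocyte-like, 0.22 (−0.17 to 0.61) in Retnla/Mrc1-led and −0.23 (−0.73 to 0.27) in Hes1/Ccl12-led cells, and each interval included 0. The largest value, 1.03 (−0.67 to 2.96), was that of nonclassical monocyte-like cells, with 12 KO and 5 DKO Fcgr2b UMIs, and its interval also included 0. With substates weighted as in KO the class value was 0.19, and without the Cxcl3/Arg1-led cells it was 0.31. The KO class held more Dnase1l3/Acp5-led cells (32.0% against 20.5% in DKO) and nearly all Cxcl3/Arg1-led cells. These had the lowest ratios among KO substates. Retnla/Mrc1-led cells were 28.9% of DKO and 11.1% of KO cells. The part of these shares in the class value was not tested.

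**Figure D2:**
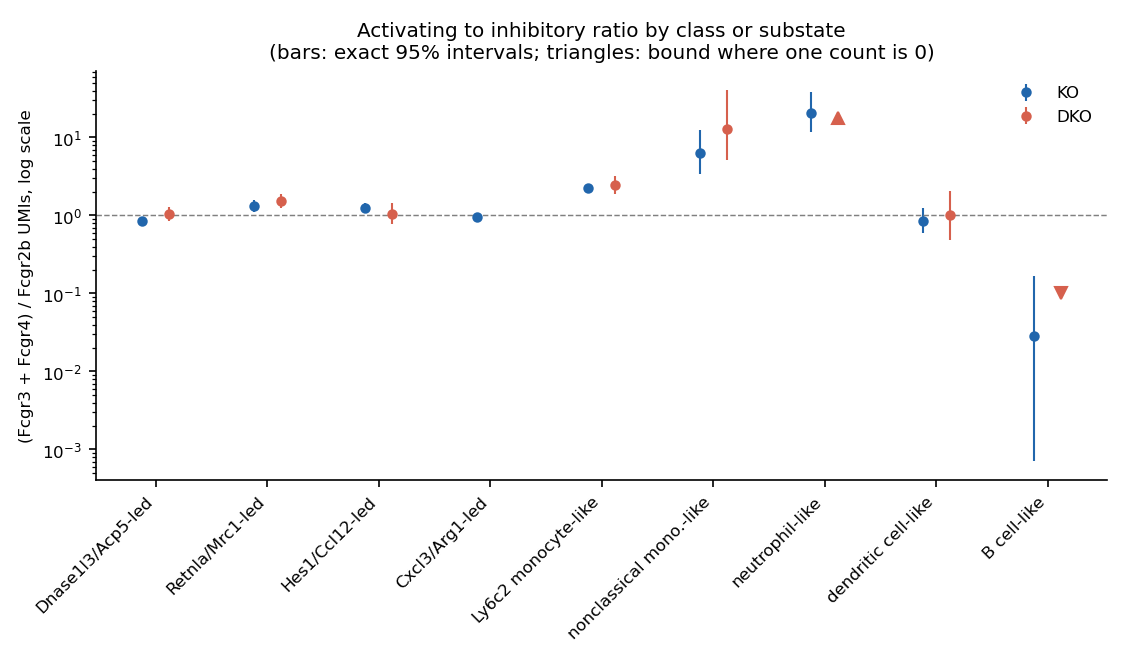
Ratio of Fcgr3 plus Fcgr4 UMIs to Fcgr2b UMIs (y axis, log scale) in each class or substate, KO in blue and DKO in red, with exact 95% intervals. Triangles mark the interval bound where a count was 0. The ratio is lowest in B cell-like cells (0.0286 in KO). In the other KO populations shown it climbs from 0.855 in Dnase1l3/Acp5-led cells to 20.4 in neutrophil-like cells. The libraries overlap within each substate that has values for both.

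Counted per cell at an equal depth of 2000 UMIs, both an activating UMI (Fcgr3 or Fcgr4) and a Fcgr2b UMI were seen in 27.9% of KO monocyte/macrophage-like cells (25.5 to 30.3), against 19.5% in DKO (15.1 to 24.5). Cells with only an activating UMI were 29.5% and 30.03%, and cells with only Fcgr2b 18.7% and 16.7%. The Cxcl3/Arg1-led KO cells held both most often (44.7%). At this depth 23.9% of KO and 33.8% of DKO cells showed neither, so a cell without a UMI cannot be called negative. Of the cells of this class, 95 KO and 29 DKO cells fell below 2000 UMIs and were left out.

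**Figure D3:**
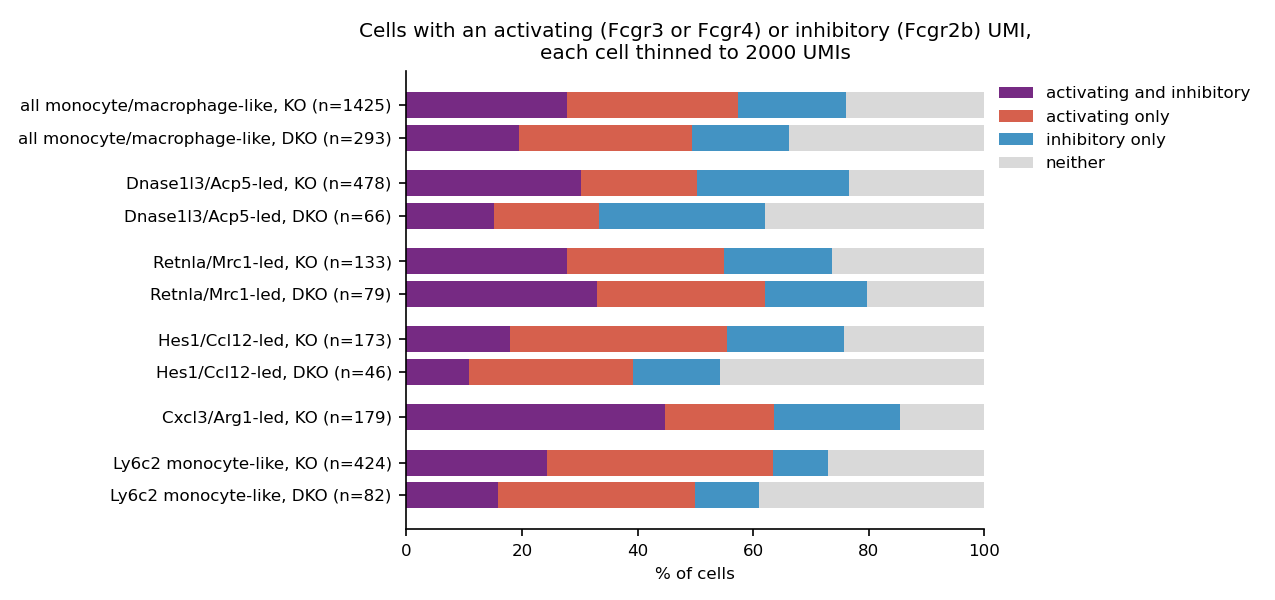
Share of cells (x axis, %) with both an activating (Fcgr3 or Fcgr4) and an inhibitory (Fcgr2b) UMI, with only one kind or with neither, each cell thinned to 2000 UMIs, by substate and library. Both kinds together are found in 44.7% of Cxcl3/Arg1-led KO cells and in 19.5% of all DKO monocyte/macrophage-like cells.

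Within substates some genotype differences were larger than over the class. In Ly6c2 monocyte-like cells Fcgr4 had 437 UMIs in 444 KO cells (196 CPM, 178 to 215) and 41 UMIs in 88 DKO cells (88.2 CPM, 63.3 to 120), and the log2 ratio was −1.13 (−1.65 to −0.68). No Fcgr4 UMI was seen in 46.4% of KO and 73.9% of DKO cells, and 12.6% and 6.82% had 3 or more. After thinning to 1000 UMIs the positive share was 19.8% in KO (16.2 to 23.8) and 10.5% in DKO (4.90 to 18.9). Fcgr1, the other interferon-gamma target among the receptors, was 117 and 129 CPM (0.15, −0.29 to 0.55). The intervals of Fcgr3 (−0.14 to 0.35) and of Fcer1g (−0.08 to 0.07) also included 0. Fcgr2b was 238 and 187 CPM (−0.34, −0.69 to −0.02). Of 5 members with at least 50 UMIs, 1 (Fcgr4) was lower and 0 were higher by 1.5-fold, where 10.2% of 4903 genes were lower and 6.04% higher. Monocyte/macrophage-like cells gated only by at least 2 Ly6c2 UMIs (337 KO and 72 DKO cells) gave −1.18 (−1.77 to −0.69), and those with a Vcan UMI (152 and 30 cells) −1.55 (−2.71 to −0.70). When nonclassical monocyte-like cells were added (487 KO and 110 DKO cells together) the value was −0.39 (−0.75 to −0.06). In the nonclassical cells alone Fcgr4 was higher in DKO: 39 UMIs in 43 KO cells (283 CPM) and 41 UMIs in 22 DKO cells (554 CPM), log2 0.97 (0.30 to 1.64). They also made up a larger share of the DKO pool, and the part of either in the pooled value was not tested. These gates and the pooled value were chosen after the data were seen.

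The Ly6c2 monocyte-like cells of both libraries also differed in interferon-gamma response genes. All 12 genes of that list had at least 50 UMIs in these cells. Of them 9 were lower by 1.5-fold in DKO and 0 higher, where 10.2% of 4903 genes were lower and 6.04% higher. Their median log2 ratio was −0.72 beside −0.013 over all genes. Socs1, the feedback inhibitor of cytokine signalling, was 164 CPM in KO and 30.1 in DKO (−2.40, −3.33 to −1.68). Gbp5, a guanylate-binding protein of cell-autonomous defence, was 294 and 110 CPM (−1.41), and Irgm1, an immunity-related GTPase, 338 and 155 CPM (−1.12). The chemokine gene Cxcl9 was 805 and 398 CPM (−1.01). Iigp1 went the other way (232 and 288 CPM, 0.32). The genes that mark these monocytes were mixed, with Ly6c2 itself at 555 and 637 CPM (0.20, 0.01 to 0.38), Vcan at 130 and 114 CPM and Plac8 at 5527 and 3734 CPM (−0.57, −0.64 to −0.49). Summed over the list, interferon-gamma response genes were lower in DKO in each of the 4 substates with at least 30 cells in both libraries: 4611 and 2767 CPM in Ly6c2 monocyte-like, 2639 and 1719 CPM in Dnase1l3/Acp5-led, 4026 and 2690 CPM in Retnla/Mrc1-led and 3752 and 2179 CPM in Hes1/Ccl12-led cells. Fcgr4 was at the same time 134 and 121 CPM (−0.13, −0.55 to 0.25), 227 and 166 CPM (−0.44, −0.86 to −0.04) and 154 and 117 CPM (−0.37, −0.97 to 0.15) in the last 3. A link between the list and Fcgr4 was not tested.

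**Figure D4:**
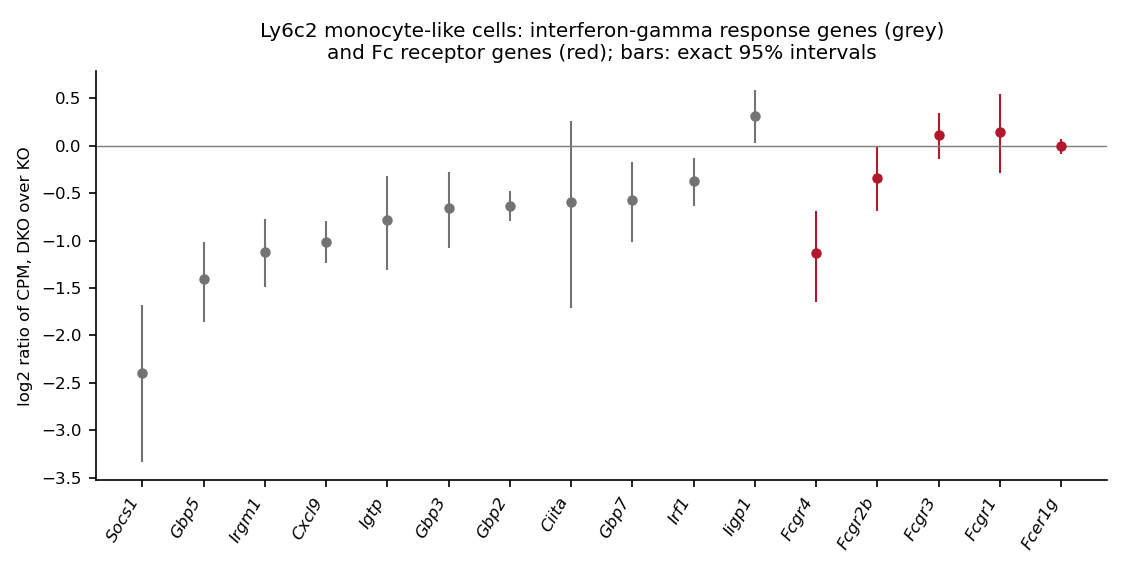
log2 ratio of CPM, DKO over KO (y axis), in Ly6c2 monocyte-like cells (444 KO and 88 DKO cells, 1 library each), for 11 of the 12 interferon-gamma response genes (grey; Iigp1 at 0.32 is the only one above 0) and 5 Fc receptor genes (red), with exact 95% intervals. Fcgr4 lies at −1.13 and Fcgr2b at −0.34 (−0.69 to −0.02), whereas Fcgr1, Fcgr3 and Fcer1g lie near 0. A link between the receptor genes and the interferon-gamma response genes was not tested.

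In the Retnla/Mrc1-led substate Fcgr3 stood apart, with 166 UMIs in 168 KO cells (231 CPM) and 163 UMIs in 93 DKO cells (366 CPM), log2 0.67 (0.35 to 0.99). Without the cell of each library that held most Fcgr3 UMIs (17 in DKO) it was 0.58, and over monocyte/macrophage-like cells with a Mrc1 UMI it was 0.54 (0.31 to 0.78). Fcgr2b there was 345 and 344 CPM (interval −0.30 to 0.29). In Dnase1l3/Acp5-led cells Fcgr2b was 451 and 345 CPM (−0.38, −0.62 to −0.16), the lower DKO value as in Ly6c2 monocyte-like cells, while Fcgr1, Fcgr3 and Fcgr4 had intervals that included 0. In dendritic cell-like cells Fcgr2b had 65 UMIs in KO (68.4 CPM) and 18 in DKO (32.8 CPM), log2 −1.03 (−1.90 to −0.29). There the 14 monocyte/macrophage markers summed to 3617 CPM in KO and 7446 in DKO, and their part was not tested. The share of all genes past 1.5-fold is not given for Retnla/Mrc1-led, nonclassical monocyte-like or dendritic cell-like cells. How common such ratios are among so few cells is therefore not shown.

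**Figure D5:**
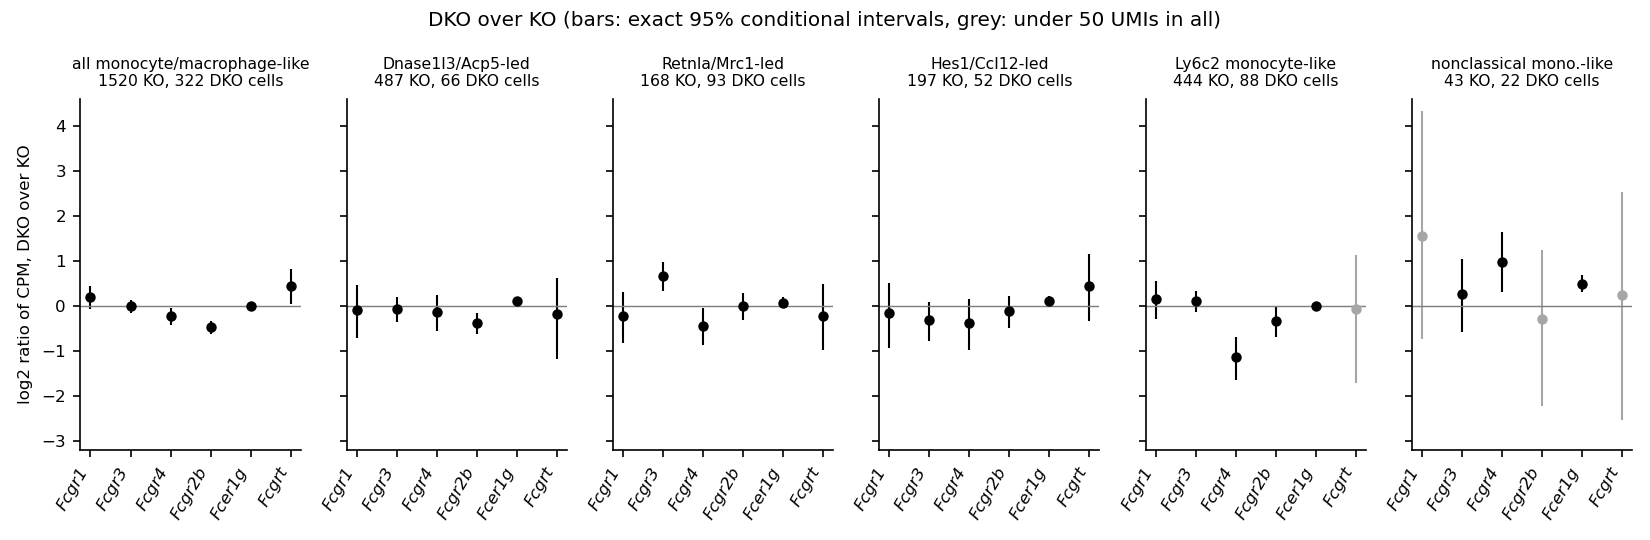
log2 ratio of CPM, DKO over KO (y axis), of 6 members in all monocyte/macrophage-like cells and in 5 substates, with exact 95% intervals; grey points rest on fewer than 50 UMIs. Fcgr4 lies at −1.13 in Ly6c2 monocyte-like cells and 0.97 in nonclassical monocyte-like cells, and Fcgr3 at 0.67 in the Retnla/Mrc1-led substate.

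The lists downstream of the receptors were read against all genes of the class, of which 9.05% were higher and 6.88% lower by 1.5-fold in DKO. Over all monocyte/macrophage-like cells, of 21 ITAM kinases and adaptors 1 was higher and 1 lower (4.76% each), with a median log2 ratio of 0.12. Tyrobp, the DAP12 adaptor, was 2569 and 2526 CPM (−0.024, −0.07 to 0.02), and Syk 301 and 262 CPM (−0.20, −0.35 to −0.06). Card9, which links Syk to NF-κB, was 9.19 and 15.7 CPM (0.79, 0.09 to 1.41) and the kinase Src 31.02 and 10.6 CPM (−1.51, −2.30 to −0.87). Sh3bp2 (0.47) and the PI3-kinase subunit Pik3cg (0.32) stayed within the fold. Of 16 inhibitory phosphatases and receptors 3 were higher and 0 lower, median 0.23. These were Dok2 (37.2 and 80.7 CPM, 1.12, 0.82 to 1.40) and Dok1 (22.3 and 42.6 CPM, 0.94, 0.53 to 1.32), adaptors that restrain Ras signalling, and the inhibitory lectin Clec4a2 (67.1 and 110 CPM, 0.71, 0.47 to 0.95). The phosphatases that FcγRIIB and related receptors recruit did not stand out: Inpp5d (SHIP1) was 72.0 and 79.5 CPM (0.15, −0.13 to 0.41) and Ptpn6 (SHP-1) 112 and 118 CPM (0.08, −0.15 to 0.29), while the inhibitory receptor Pilra was 106 and 73.9 CPM (−0.51).

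Of 17 phagocytosis effectors 0 lay past the fold, with a median of 0.07, and the largest ratios were those of Dock2 (0.47), Crkl (−0.44), Was (0.30) and Lamp1 (0.27). Of 12 interferon-gamma response genes 0 were higher and 6 lower over the whole class, median −0.56, led by Socs1 (111 and 38.1 CPM, −1.54), Gbp5 (175 and 77.3 CPM, −1.18), Cxcl9 (950 and 486 CPM, −0.97) and Irgm1 (191 and 112 CPM, −0.77). Of 12 other Fc receptor genes 2 reached 50 UMIs. Fcrls, an Fc receptor-like scavenger gene, had 48 UMIs in KO (5.52 CPM) and 71 in DKO (39.8 CPM), log2 2.85 (2.30 to 3.41), and Trim21, a cytosolic antibody receptor, 53 and 6 UMIs (−0.76, −2.37 to 0.36). Summed over the 12 genes, the Retnla/Mrc1-led substate, 11.1% of KO and 28.9% of DKO cells, held 70.9 and 135 CPM. Hes1/Ccl12-led cells held 16.2 and 62.1 CPM. The sum was lower in DKO in Dnase1l3/Acp5-led and Ly6c2 monocyte-like cells, where DKO had 3 and 2 UMIs. Fcrls by substate is not given here, and the part of substate shares in its class ratio was not tested.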

How the data were processed

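The authors deposited UMI counts, not normalised, for each gene in each barcode, made from droplet 3′ libraries; the submitters' processing notes name Cell Ranger 6.0.1, Seurat 4.3.0 and mm10. Whether counting used strand was not given in the sources used here. The filter of the study's methods was applied (300 to 5000 genes, no more than 10% of UMIs from mitochondrial genes). Seurat 5.3.0 clustered the pooled cells (R 4.3.3; genes in at least 3 cells, 2000 variable genes, 30 components, 20 neighbours, resolution 0.3, counts scaled to 10000), without the members and pathway genes among the variable genes. Doublets were kept; Scrublet (scanpy 1.11.5) called 6 KO and 1 DKO barcodes, so it marked few, and doublets may remain.

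A cluster took the class with most markers found (at least 20 UMIs, 25% of the highest cluster level, 20% of cells, at least 3 markers), unless more of its 10 leading genes marked another class. This rule was revised after the clusters were seen. Summed UMIs were given as CPM with exact 95% Poisson intervals, ratios with exact conditional intervals after adding 0.5 counts to the value, and shares with Clopper-Pearson intervals (scipy 1.17.1). A count of 0 allows up to 3 counts. Each library was the only one of its group, so no test, p-value or standard error was made. Past the fold means at least 1.5-fold among genes whose UMIs in the 2 libraries came to at least 50.

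The members and lists were chosen with earlier results of these data known. Named genes were the 7 members, the 4 genes of each list with the largest absolute log2 ratio, Tyrobp, Syk, Inpp5d and Ptpn6, the 3 genes most like 4 members (at least 200 UMIs), and 5 leading genes of each substate; some genes are not reported here, in the text or in figures. Iigp1, Ly6c2, Vcan and Plac8 in monocyte-like cells were named after their values were seen. Alternatives covered TMM scaling (edgeR 4.0.16), cell filters, resolutions of 0.8 and 0.1, doublet removal, a Lyz2 gate, members kept among variable genes, means over cells, substate weighting over substates with at least 10 cells in both libraries, and leaving out a substate or the leading cell. Intervals were also run on simulated counts drawn from the same Poisson model that they assume. That simulation had no clustering of UMIs within cells, so it cannot show how well the intervals hold in these data.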

Additional observations from a re-analysis of the deposited data

Results flagged for a closer look

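Fcgr4 and Fcer1g had DKO over KO intervals on opposite sides of 0 in different populations, and the difference between populations was not tested, with 1 library per genotype. For Fcgr4 the log2 ratio was 0.97 in nonclassical monocyte-like cells, against −1.13 in Ly6c2 monocyte-like cells, −0.44 in the Retnla/Mrc1-led substate and −0.22 over all monocyte/macrophage-like cells. The nonclassical value rested on 22 DKO cells, 7 of which held 3 or more Fcgr4 UMIs, against 3 of 43 KO cells. For Fcer1g the log2 ratio was 0.50 in nonclassical monocyte-like cells, 0.12 in Dnase1l3/Acp5-led cells and 0.11 in the Hes1/Ccl12-led substate, against −0.38 in dendritic cell-like, −0.30 in neutrophil-like and −3.67 in T cell-like cells. The last value came from 124 KO UMIs in 13 cells and 2 DKO UMIs.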

How the results depend on the processing

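With 1 library per genotype no replicate could be left out, and no setting shows how far mice of 1 genotype differ. No paired analysis was possible because each group had 1 library. Weighting substates as in KO gave −0.44 for Fcgr4, −0.30 for Fcgr2b, 0.19 for the activating to inhibitory ratio and −0.019 for Fcgrt, the only ratio with an interval on 1 side of 0 that changed sign. At resolution 0.8, where 2 clusters led by genes of other classes left the class (1035 KO and 235 DKO cells), Fcgr4 was −0.44. Fcgr2b was −0.65 at resolution 0.1, −0.32 without the Cxcl3/Arg1-led substate and −0.32 as a mean over cells. For Fcgr4 in Ly6c2 monocyte-like cells, adding nonclassical monocyte-like cells gave −0.39, and the other 5 settings, chosen after the data were seen, stayed between −1.55 and −1.01. TMM scaling left the Fcgr2b ratio at −0.59 and the Fcgr4 ratio at −0.35. The pathway list genes past the fold were 5 higher and 8 lower, with 4 to 7 and 8 to 11 under the alternatives. Shares of cells with a UMI moved with depth for all 6 members. Low counts limit Fcgrt, Fcgr1 in DKO and every value in nonclassical monocyte-like cells.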
